A study of Homo sapiens with 12 samples.

Results

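The 41 genes described here are regulators and known targets of the transcription factor NRF2 (gene NFE2L2), and they serve glutathione and thioredoxin metabolism, NADPH supply and the detoxification and export of reactive compounds. They were chosen by gene name, from a list drawn up after GCLC had been seen to be highly expressed in these data, and were matched by symbol to Ensembl identifiers. All 41 were found among the 60617 genes in the files. They were measured by RNA-seq in SNU308, a human gallbladder cancer cell line labelled as wild type, in 12 samples of 3 groups with 4 replicates each. Cells of every group received siRNA at 25 nM and total RNA was taken at day 3: the NTC group received the control siRNA, and the siCEACAM6#2 and siCEACAM6#3 groups each received 1 of 2 siRNAs against CEACAM6, which encodes a cell adhesion molecule anchored on the cell surface. For transfection, Oligofectamine is given in the labels and RNAiMAX in the study's methods. A single cell line was studied, so the values describe SNU308 cells alone.

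NRF2 is held at low levels by KEAP1, an adaptor that brings NRF2 to a ubiquitin ligase for degradation. When reactive compounds modify KEAP1, NRF2 accumulates, pairs with small MAF proteins and binds antioxidant response elements in its target genes. Mutation or silencing in this pathway leaves target genes strongly expressed in some cancers, including cancers of the biliary tract, and regulation of NRF2 is mostly at the protein level, which RNA-seq does not measure.

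Estimated counts summed to between 21799476 and 22059456 per sample, so depth was nearly equal. All 10 epithelial markers checked were expressed, KRT19 with a median of 3215 TPM (transcript level scaled for length and for depth). Among the fibroblast, endothelial and hepatocyte markers, COL1A1, VWF and SERPINA1 had a median of at least 1 TPM, and the leukocyte marker CD68 was higher than any of these, at 38.6 TPM. Of the 5 leukocyte markers 2 reached a median of 1 TPM, while PTPRC, CD3E and LYZ had 0.0123, 0.0769 and 0.220 TPM. CEACAM6 itself fell in both siRNA groups, by 0.82 on the log2 scale with siCEACAM6#2 (SE 0.07, adjusted p = 2.71e-05) and by 0.46 with siCEACAM6#3 (SE 0.07, adjusted p = 0.0151). The siCEACAM6#3 replicates differed most among themselves: replicate 1 differed from replicates 2 and 4 with a chi-square per gene of 27.0 and 22.9 but from replicate 3 with 9.38, and all other pairs of replicates in the 3 groups lay between 2.91 and 15.1. In limma's sample quality weights, siCEACAM6#3 replicates 4 and 2 were lowest (0.357 and 0.456), followed by replicate 1 of siCEACAM6#2 and of siCEACAM6#3 (0.625 and 0.635). Mitochondrial transcripts held 11.8 to 12.9% of counts in the NTC group, 12.2 to 13.3% with siCEACAM6#2 and 12.5, 15.3, 14.3 and 14.6% in siCEACAM6#3 replicates 1 to 4.

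The NRF2 genes were abundant in SNU308 cells in every group. Their median level was 325 TPM (mean over the 12 samples), against 8.32 TPM over the 17620 genes tested. Of the 41 genes, 34 averaged at least 100 TPM and 13 at least 1000 TPM, against 1178 and 125 of the 17620 genes tested. Among the 100 most abundant genes were 11 members. FTL and FTH1, the light and heavy chains of the iron store ferritin, led with 18563 and 15758 TPM and ranked 8 and 9 among all genes. ALDH3A1, an aldehyde dehydrogenase, followed with 7468 TPM, and the aldo-keto reductases AKR1B10, AKR1C1, AKR1C3 and AKR1C2, which reduce carbonyls and steroids, had 3130, 3102, 2491 and 1592 TPM. GPX2, a glutathione peroxidase typical of epithelia of the gut and biliary system, had 2753 TPM, the quinone reductase NQO1 2189 TPM and the pentose phosphate enzyme TKT 1759 TPM. GCLC, the catalytic subunit of glutamate-cysteine ligase, which performs the first step of glutathione synthesis, had 304 TPM and ranked 345 among all genes and 22 among the 41, and its partner GCLM, the modifier subunit, had 1103 TPM. The levels of the 41 genes, GCLC's among them, are given as a description, because GCLC's level was known when the list was drawn up.

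**Figure D1:**
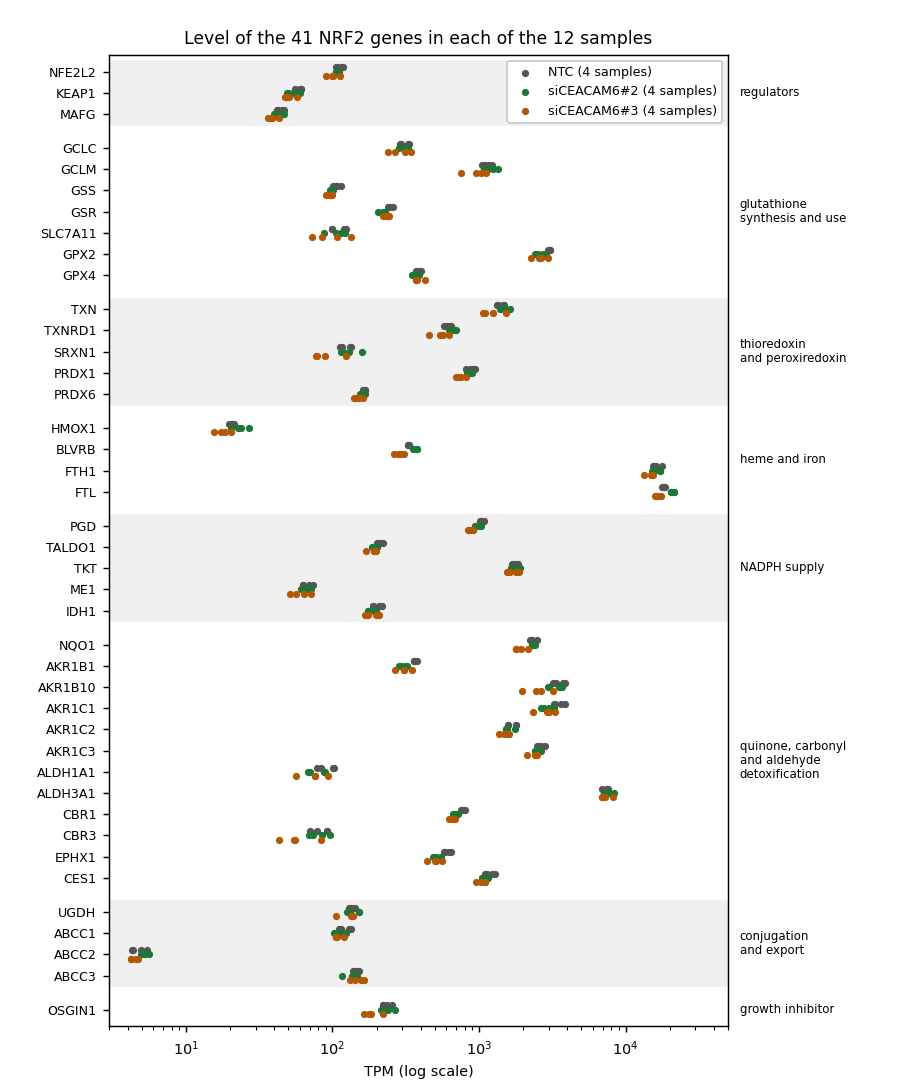
Level of each of the 41 NRF2 genes in TPM (log axis) in each of the 12 samples, with 1 point per sample coloured by group and genes arranged by role. FTL and FTH1 lie highest, at means of 18563 and 15758 TPM, and ABCC2 lies lowest at 4.81 TPM. Differences between the 3 groups are small against the width of the axis.

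Few members were scarce. The least abundant were ABCC2, a canalicular exporter of conjugates, with 4.81 TPM, and HMOX1, the heme oxygenase that opens the heme ring, with 20.7 TPM. Among the regulators NFE2L2 had 107 TPM, KEAP1 54.6 TPM and MAFG, a small MAF partner of NRF2, 42.5 TPM. Every member passed the filter on low counts, and the lowest estimated count of any member in any sample was 320.0.

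Kallisto divides reads that fit several genes by estimation, so the share of each member's sequence also found elsewhere was computed from the GENCODE 44 transcripts as 31-mers, stretches of 31 bases. For 11 members at least 20% of the 31-mers also occurred in transcripts of another gene. AKR1C1 and AKR1C2 shared most with each other (31.8% and 45.6% of their 31-mers), so the split of reads between them is uncertain. NFE2L2 itself shared 39.5%, most with HNRNPA3, which was assigned 115 to 133% of NFE2L2's count in a sample, so the level of NFE2L2 is uncertain too. SRXN1 shared 90.6% with the overlapping gene ENSG00000270299, which was assigned only 13.6 to 72.4 counts in a sample. That count is kallisto's own division of the reads, so the level of SRXN1 is uncertain as well. FTL shared 33.5%, mainly with the pseudogene FTLP3 (2.01 to 10.1 counts), and FTH1 63.6%, mainly with its overlapping neighbour BEST1 (12.1 to 28.2 counts). CBR3 shared 67.6%, most with CBR3-AS1, which was assigned 10.1 to 19.5% of CBR3's count, so the level of CBR3 is uncertain too. CES1, PRDX1, AKR1B10 and NQO1 shared 43.1%, 35.4%, 31.9% and 20.5%. The gene sharing most with each was assigned at most 0.0205%, 2.18%, 0.0797% and 0.00787% of its count. All these assigned counts come from the same estimation and do not test it. GCLM, TXNRD1, HMOX1, BLVRB and OSGIN1 shared 5.92%, 0.774%, 0.252%, 0.884% and 7.48%.

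The core of the antioxidant response element, TGACNNNGC, was searched on both strands of the RefSeq promoter windows of GRCh38.p14, which run from 250 bases before to 50 after a gene's start. Windows were found for 28 of the 41 genes. ABCC1, ABCC3, AKR1B10, ALDH3A1, CBR3, CES1, FTH1, GSR, GSS, HMOX1, PRDX1, PRDX6 and SLC7A11 had no entry. The core occurred in 10 of the members' 38 windows (26.3%), belonging to 9 genes, and in 13.3% of all 35116 windows of that length. Among the 8 genes that differed between the siRNAs below, GCLM and TXNRD1 held it, and the windows of SRXN1, BLVRB, FTL, NQO1 and OSGIN1 did not. A match is a description of these letters and not a measured binding site. Sequence beyond these windows was not searched, so a window without the core does not show that the gene lacks one. The matches upstream of GCLM and TXNRD1 are shown because both genes were lower with siCEACAM6#3 than with siCEACAM6#2, that of GPX2 because it is the most abundant member with a match, and those of KEAP1 because it encodes the repressor of NRF2. TXNRD1 had 2 upstream matches, in different windows, besides a match that ran up to the start, and KEAP1 had 2 in the same window. Each is written 5′ to 3′ on the gene's strand, with the core in capitals, and where the core lies on the opposite strand the capitals are its reverse complement.
GCLM, chr1:93909446-93909474, minus strand, core at bases -34 to -26 from the start: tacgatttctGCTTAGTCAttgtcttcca
TXNRD1, chr12:104215670-104215698, plus strand, core at bases -99 to -91 from the start: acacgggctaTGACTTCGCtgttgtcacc
TXNRD1, second window, chr12:104286920-104286948, plus strand, core at bases -102 to -94 from the start: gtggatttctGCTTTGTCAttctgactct
GPX2, chr14:64942849-64942877, minus strand, core at bases -122 to -114 from the start: acctgtttttGCTAAGTCAtcctggggat
KEAP1, chr19:10502807-10502835, minus strand, core at bases -54 to -46 from the start: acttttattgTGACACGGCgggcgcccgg
KEAP1, chr19:10502784-10502812, minus strand, core at bases -31 to -23 from the start: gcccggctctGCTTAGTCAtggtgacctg

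Most calls of members by limma-voom came from the comparison between the 2 siRNAs against CEACAM6. Of the 41 genes, 8 were lower with siCEACAM6#3 than with siCEACAM6#2 at an adjusted p under 0.05 (19.5%) and 0 were higher. Over all genes tested 1.47% were called in this comparison, 0.630% lower and 0.840% higher, and among the 1178 genes with a mean of at least 100 TPM 2.72% were called and 1.53% were lower. The members were listed with earlier results of these data known, so these shares are a description. The 8 genes were GCLM, TXNRD1, SRXN1, HMOX1, BLVRB, FTL, NQO1 and OSGIN1. These are calls by limma-voom, and edgeR called the same 8 (1.57% of all genes). DESeq2 called 12, all lower, adding TXN, PRDX1, AKR1B10 and ABCC2 (3.16% of all genes). Each of these fits took its spread from all 3 groups, NTC included. Fitted on the siRNA groups alone, limma-voom called 1 member, BLVRB (0.333% of all genes), and the fits on TPM also called BLVRB alone. The median log2 fold change of the 41 genes was -0.10, with 35 below 0, against a median of 0.00 with 51.2% below 0 over all genes tested. In 11 members all 4 siCEACAM6#3 samples lay below all 4 siCEACAM6#2 samples, and in 0 members they lay above, while over all genes this was so of 3.34% in each direction (lower, 3.34%, and higher, 3.34%). The same siRNAs also differed in CEACAM6 itself, which was 0.35 higher with siCEACAM6#3 on the log2 scale (adjusted p = 0.0160). RNA from a bulk culture cannot tell fewer cells carrying a transcript from less of the transcript per cell.

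Against NTC limma-voom called fewer members. The shift with siCEACAM6#3 was no smaller than between the siRNAs, with a median of -0.13 against -0.10. Members with an unadjusted p under 0.05 in limma-voom numbered 22 with siCEACAM6#3 (12.5% of all genes) and 17 between the siRNAs (13.3% of all genes). With siCEACAM6#2, 1 of the 41 genes was called, FTL, which was higher, against 1.25% of all genes tested. DESeq2 called 5, FTL and BLVRB higher and KEAP1, GSR and AKR1B1 lower (3.03% of all genes). At an unadjusted p under 0.05 there were 11 members (13.6% of all genes), and the median log2 fold change was -0.03 with 24 below 0. With siCEACAM6#3, limma-voom called 0 members (0.0681% of all genes), edgeR called 0 and DESeq2 called 6, all lower (1.25% of all genes): PRDX1, PGD, NQO1, AKR1B10, CBR1 and OSGIN1. Here 22 members had an unadjusted p under 0.05 in limma-voom, against 12.5% of all genes, and 37 of 41 were below 0 with a median of -0.13, against 51.1% below 0 and a median of 0.00 over all genes. For the average of both siRNAs, limma-voom and edgeR called 0 members (0.227% of all genes by limma-voom) and DESeq2 called 4, KEAP1, GSR, AKR1B1 and EPHX1, all lower (1.91% of all genes). In limma-voom 14 had an unadjusted p under 0.05 here (12.9% of all genes). Both comparisons with NTC use the same 4 NTC samples, so their values are given side by side below and are not independent of each other. In what follows, fold changes, adjusted p-values and calls are by limma-voom unless another tool is named.

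**Figure D2:**
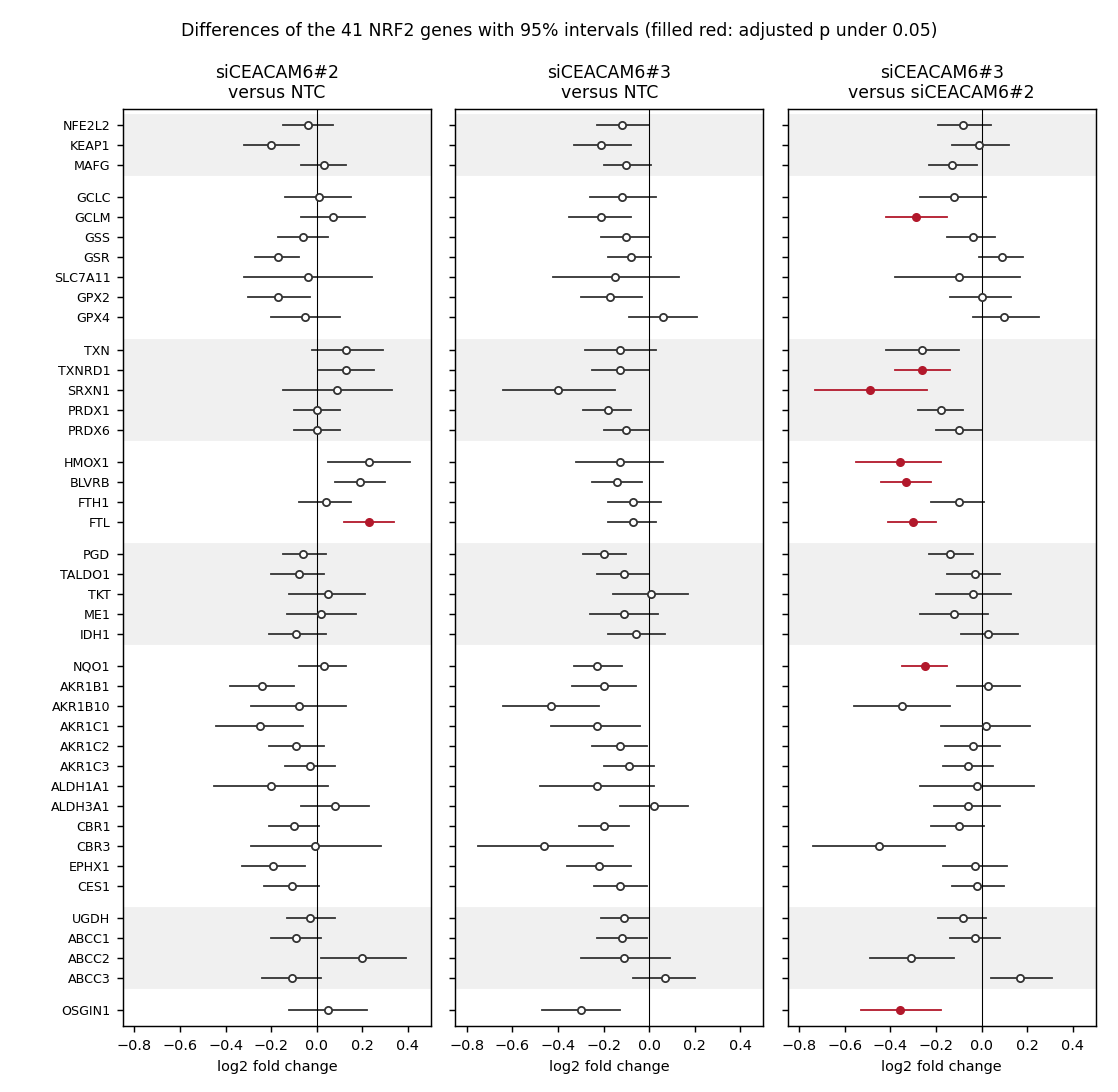
Log2 fold change of each of the 41 NRF2 genes with its 95% interval for siCEACAM6#2 versus NTC, siCEACAM6#3 versus NTC and siCEACAM6#3 versus siCEACAM6#2, with genes arranged by role and genes of adjusted p under 0.05 filled in red. Only FTL is red in the first panel, none in the second and 8 genes in the third, all left of 0; the medians are -0.03, -0.13 and -0.10.

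In non-overlapping ranges the 2 siRNAs also differed. With siCEACAM6#2, 4 members lay above every NTC sample (TXNRD1, HMOX1, BLVRB and FTL; 5.34% of all genes) and 7 lay below (KEAP1, GSR, GPX2, AKR1B1, AKR1C1, EPHX1 and ABCC3; 5.42% of all genes). With siCEACAM6#3, 9 members lay below every NTC sample (KEAP1, GCLM, PRDX1, BLVRB, PGD, NQO1, AKR1B10, CBR1 and OSGIN1; 3.29% of all genes) and 0 lay above (2.99% of all genes). Fold changes of 17 members were above 0 with siCEACAM6#2 and those of 37 were below 0 with siCEACAM6#3. Both held for 15 members, much of which follows from these totals. The share over all genes was not computed.

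The ferritin and heme genes held 3 of the 8 differences between the siRNAs. FTL (ENSG00000087086, chr19:48965309-48966879 on GRCh38), the ferritin light chain, read 9709, 9361, 10103 and 9817 CPM under NTC, 11003, 12044, 11779.5 and 10919 under siCEACAM6#2 and 8764, 9877, 8867 and 9551 under siCEACAM6#3 (CPM being the count relative to TMM-scaled library size). All siCEACAM6#2 samples lay above all others. The log2 fold change was 0.23 (SE 0.05, adjusted p = 0.0348) with siCEACAM6#2, -0.07 (SE 0.05, adjusted p = 0.566) with siCEACAM6#3 and -0.30 (SE 0.05, adjusted p = 0.00712) between the siRNAs, in which FTL fell by 19.0%. BLVRB (ENSG00000090013, chr19:40447765-40465764), a reductase of biliverdin and flavins, read 156, 157, 161 and 159 CPM under NTC, 185, 189, 178 and 170.4 under siCEACAM6#2 and 147, 133, 141 and 155 under siCEACAM6#3. The 3 groups did not overlap: siCEACAM6#2 was highest, NTC lay between and siCEACAM6#3 was lowest. BLVRB had a log2 fold change of 0.19 (SE 0.05, adjusted p = 0.0932) with siCEACAM6#2 and -0.14 (SE 0.05, adjusted p = 0.293) with siCEACAM6#3, neither called by limma-voom, and of -0.33 (SE 0.05, adjusted p = 0.00669) between the siRNAs. HMOX1 (ENSG00000100292, chr22:35380361-35394214) read 21.1, 21.9, 22.7 and 20.8 CPM under NTC, 29.1, 23.0, 24.4 and 25.4 under siCEACAM6#2 and 18.3, 17.6, 22.5 and 21.0 under siCEACAM6#3. Its siCEACAM6#2 samples lay above all others, and its siCEACAM6#3 samples overlapped with NTC. Differences were 0.23 (SE 0.09, adjusted p = 0.226), -0.13 (SE 0.09, adjusted p = 0.568) and, between the siRNAs, -0.36 (SE 0.09, adjusted p = 0.0475). FTH1, the ferritin heavy chain with ferroxidase activity, read 7074, 6840.1, 6706 and 6413 CPM under NTC, 7205, 6969, 6547 and 7033 under siCEACAM6#2 and 6258, 5872, 6832 and 6909 under siCEACAM6#3. Its groups overlapped in each comparison, and the difference between the siRNAs was -0.10 (SE 0.05, adjusted p = 0.444).

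The thioredoxin system held 2 more. TXNRD1 (ENSG00000198431, chr12:104215779-104350307), the cytosolic thioredoxin reductase whose upstream match is shown above, read 1765, 1811, 1732 and 1769.6 CPM under NTC, 1904, 1873, 2003 and 1974 under siCEACAM6#2 and 1787, 1594, 1698 and 1419 under siCEACAM6#3. All siCEACAM6#2 samples were above all others, and siCEACAM6#3 replicate 1 lay within the NTC range while its other replicates were lower. TXNRD1 differed by 0.13 (SE 0.06, adjusted p = 0.336) with siCEACAM6#2, by -0.13 (SE 0.06, adjusted p = 0.387) with siCEACAM6#3 and by -0.26 (SE 0.06, adjusted p = 0.0349) between the siRNAs. SRXN1 (ENSG00000271303, chr20:646615-653200), sulfiredoxin, which restores overoxidised peroxiredoxins, read 257, 264, 240.3 and 228 CPM under NTC, 323, 246, 234 and 257 under siCEACAM6#2 and 247, 163, 184 and 166 under siCEACAM6#3. In both siRNA groups replicate 1 was the highest, and it was siCEACAM6#3 replicate 1 that overlapped with the other groups. SRXN1 differed by 0.09 (SE 0.11, adjusted p = 0.794) and -0.40 (SE 0.12, adjusted p = 0.180) from NTC and by -0.49 (SE 0.12, adjusted p = 0.0447) between the siRNAs. PRDX1, a peroxiredoxin that reduces hydrogen peroxide, read 513, 530.3, 512 and 473 CPM under NTC, 521, 495, 506 and 501 under siCEACAM6#2 and 469, 422, 447 and 447 under siCEACAM6#3. Its siCEACAM6#3 samples lay below all others without passing the test in limma-voom, at -0.18 (SE 0.05, adjusted p = 0.148) from NTC and -0.18 (SE 0.05, adjusted p = 0.0719) from siCEACAM6#2. TXN, the thioredoxin itself, and PRDX6 differed by -0.26 (SE 0.07, adjusted p = 0.103) and -0.10 (SE 0.05, adjusted p = 0.354) between the siRNAs, with overlapping ranges.

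**Figure D3:**
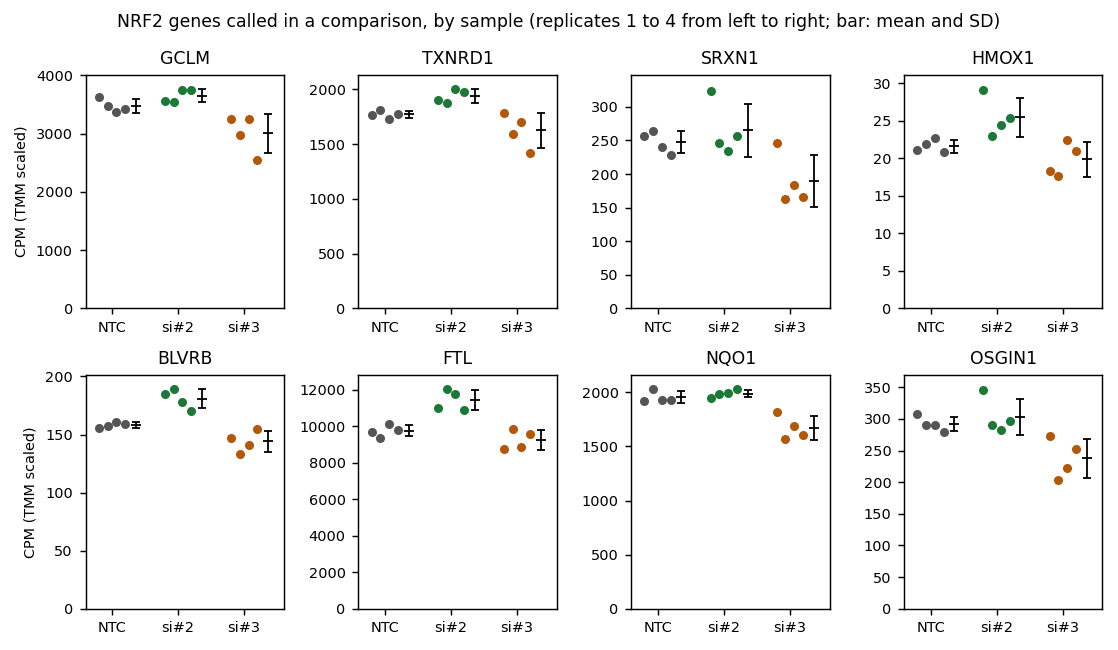
CPM (axes from 0) of the 8 NRF2 genes called in a comparison, with 1 point per sample, replicates 1 to 4 from left to right, and the mean with its SD beside each group of 4; si#2 and si#3 are siCEACAM6#2 and siCEACAM6#3. In 7 of the 8 genes every siCEACAM6#3 point lies below every siCEACAM6#2 point, and in SRXN1 siCEACAM6#3 replicate 1 (247 CPM) overlaps.

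In glutathione metabolism, GCLM differed between the siRNAs and GCLC did not pass the test. GCLM (ENSG00000023909, chr1:93885199-93909456) read 3632, 3465, 3371 and 3416 CPM under NTC, 3566, 3537, 3749 and 3740.4 under siCEACAM6#2 and 3251, 2976, 3258 and 2545 under siCEACAM6#3. All siCEACAM6#3 samples lay below all others, with replicate 4 the lowest. The difference was 0.07 (SE 0.06, adjusted p = 0.698) with siCEACAM6#2, -0.21 (SE 0.06, adjusted p = 0.202) with siCEACAM6#3 and -0.29 (SE 0.06, adjusted p = 0.0370) between the siRNAs. GCLC (ENSG00000001084, chr6:53497341-53616970) read 639.8, 653, 589.8 and 589 CPM under NTC, 639, 599.9, 622 and 618 under siCEACAM6#2 and 656, 531, 600.1 and 503 under siCEACAM6#3. Its groups overlapped, siCEACAM6#3 replicate 1 being the highest of all 12 samples and replicate 4 the lowest. GCLC's log2 fold changes were 0.01 (SE 0.07, adjusted p = 0.985), -0.12 (SE 0.07, adjusted p = 0.508) and -0.12 (SE 0.07, adjusted p = 0.486). Glutathione reductase, GSR, read 511, 530.1, 498 and 497 CPM under NTC, 466, 439.6, 456 and 443 under siCEACAM6#2 and 507, 470.4, 485 and 458 under siCEACAM6#3. Its siCEACAM6#2 samples lay below all NTC samples and missed the threshold in limma-voom, at -0.17 (SE 0.04, adjusted p = 0.0722), and the siCEACAM6#3 value was -0.08 (SE 0.04, adjusted p = 0.456). GPX2, whose upstream match is shown above, read 1679.7, 1625, 1742 and 1670.0 CPM under NTC, 1609.7, 1471, 1405 and 1508 under siCEACAM6#2 and 1467, 1335, 1489 and 1709 under siCEACAM6#3. The siCEACAM6#2 samples lay below all NTC samples and the siCEACAM6#3 samples spread across both, with -0.17 (SE 0.06, adjusted p = 0.249) and -0.17 (SE 0.06, adjusted p = 0.295) from NTC. The cystine transporter subunit SLC7A11, glutathione synthetase GSS and the lipid peroxide reductase GPX4 overlapped in every comparison, with fold changes between -0.15 and 0.10.

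The quinone, carbonyl and aldehyde enzymes were the largest role, with 12 members, and limma-voom called only NQO1 among them, whereas DESeq2 also called AKR1B10, CBR1, AKR1B1 and EPHX1 in at least 1 comparison. NQO1 (ENSG00000181019, chr16:69706996-69726668) read 1922, 2035, 1927 and 1929 CPM under NTC, 1946, 1984, 1992 and 2028 under siCEACAM6#2 and 1822, 1569, 1689 and 1607 under siCEACAM6#3. Each siCEACAM6#3 sample lay below each sample of the other groups, which overlapped. NQO1 differed by 0.03 (SE 0.05, adjusted p = 0.884) with siCEACAM6#2, -0.23 (SE 0.05, adjusted p = 0.109) with siCEACAM6#3 and -0.25 (SE 0.05, adjusted p = 0.0158) between the siRNAs. AKR1B10 read 4078, 4249, 3860.1 and 3631 CPM under NTC, 4191, 3488, 3422 and 3899 under siCEACAM6#2 and 3559, 2306, 3058 and 2939.9 under siCEACAM6#3. Its siCEACAM6#3 samples lay below all NTC samples and overlapped with siCEACAM6#2, replicate 2 being the lowest. AKR1B10 did not pass the test in limma-voom, at -0.43 (SE 0.10, adjusted p = 0.128) from NTC and -0.35 (SE 0.10, adjusted p = 0.103) between the siRNAs.

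For AKR1C1, AKR1B1 and EPHX1 both siRNAs gave values of similar size. AKR1C1 read 2759.8, 2911, 2623 and 2503 CPM under NTC, 2321, 2239, 2055 and 2475 under siCEACAM6#2 and 2295, 1846, 2384 and 2729 under siCEACAM6#3. Its siCEACAM6#2 samples lay below all NTC samples and its siCEACAM6#3 samples overlapped with them, at -0.25 (SE 0.09, adjusted p = 0.223) and -0.23 (SE 0.09, adjusted p = 0.311) from NTC. AKR1B1, aldose reductase, read 324, 334, 330.3 and 326 CPM under NTC, 289, 276, 264 and 287 under siCEACAM6#2 and 273, 253, 287 and 334 under siCEACAM6#3. Here too the siCEACAM6#2 samples lay below NTC, while siCEACAM6#3 replicate 4 reached the NTC range, and the differences were -0.24 (SE 0.07, adjusted p = 0.0994) and -0.20 (SE 0.07, adjusted p = 0.235). EPHX1, the microsomal epoxide hydrolase, read 712, 692, 677 and 647 CPM under NTC, 630.1, 593, 558 and 611 under siCEACAM6#2 and 569.7, 524, 579 and 679 under siCEACAM6#3. It showed the same order, with -0.19 (SE 0.07, adjusted p = 0.198) and -0.22 (SE 0.07, adjusted p = 0.197), and none of these genes passed the test in limma-voom, while DESeq2 called AKR1B1 with siCEACAM6#2 and AKR1B1 and EPHX1 for the average of both siRNAs. Between the siRNAs AKR1C1, AKR1B1 and EPHX1 differed by 0.02 (95% interval -0.18 to 0.21), 0.03 (-0.11 to 0.17) and -0.03 (-0.17 to 0.11).

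The most abundant of the other reductases and dehydrogenases overlapped between groups. ALDH3A1 read 7525, 8241, 8622 and 8532 CPM under NTC, 8084, 9606, 8610.0 and 8528 under siCEACAM6#2 and 7628, 7939.7, 8298 and 9550.0 under siCEACAM6#3. Its lowest sample was an NTC sample and its highest a siCEACAM6#2 sample, and it differed by 0.08 (SE 0.07, adjusted p = 0.678) and 0.02 (SE 0.07, adjusted p = 0.940) from NTC. AKR1C3 read 2025, 2163, 2019 and 1991 CPM under NTC, 1937, 2072, 1947 and 2067 under siCEACAM6#2 and 1928, 1747, 1954 and 2066 under siCEACAM6#3, and AKR1C2 read 1373, 1403, 1311 and 1259 CPM under NTC, 1236, 1258, 1205 and 1327 under siCEACAM6#2 and 1228, 1104, 1213 and 1352 under siCEACAM6#3. In both genes siCEACAM6#3 replicate 2 was the lowest of the 12 samples, and from NTC to siCEACAM6#3 they differed by -0.09 (SE 0.05, adjusted p = 0.481) and -0.13 (SE 0.06, adjusted p = 0.384). CBR1, a carbonyl reductase, read 567, 602, 583 and 584 CPM under NTC, 544, 576, 526 and 539 under siCEACAM6#2 and 494, 472, 507 and 562 under siCEACAM6#3. Its siCEACAM6#3 samples lay below all NTC samples, at -0.20 (SE 0.05, adjusted p = 0.149), and overlapped with siCEACAM6#2. CBR3, ALDH1A1 and the carboxylesterase CES1 overlapped in every comparison, and CBR3 had the most negative value of the 41 genes against NTC, -0.46 (SE 0.14, adjusted p = 0.197) with siCEACAM6#3, with the largest spread in that group (SD 0.348 in log2 CPM).

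No gene of NADPH supply passed the test in limma-voom, but PGD was called with siCEACAM6#3 versus NTC by DESeq2 and, without a filter on low counts, by limma-voom, in the latter also between the siRNAs. PGD, the phosphogluconate dehydrogenase of the oxidative pentose phosphate pathway, read 1417, 1483, 1452 and 1417 CPM under NTC, 1444, 1394, 1347 and 1364 under siCEACAM6#2 and 1282, 1180.2, 1248 and 1331 under siCEACAM6#3. The siCEACAM6#3 samples lay below all others, at -0.20 (SE 0.05, adjusted p = 0.126) from NTC and -0.14 (SE 0.05, adjusted p = 0.157) from siCEACAM6#2. TKT, which works in the non-oxidative branch, read 2219.8, 2329.6, 2498 and 2509.9 CPM under NTC, 2229, 2651, 2580.2 and 2413 under siCEACAM6#2 and 2061, 2646, 2294 and 2648 under siCEACAM6#3. Its groups overlapped throughout, with 0.05 (SE 0.08, adjusted p = 0.864) and 0.01 (SE 0.08, adjusted p = 0.980) from NTC. TALDO1, the malic enzyme ME1 and the isocitrate dehydrogenase IDH1 overlapped in every comparison, with fold changes between -0.12 and 0.03.

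Limma-voom called none of the regulators, and DESeq2 called KEAP1 with siCEACAM6#2 and for the average of both siRNAs. NFE2L2 (ENSG00000116044, chr2:177218667-177392756) read 193, 192, 182 and 181 CPM under NTC, 188, 183, 177 and 179.7 under siCEACAM6#2 and 187, 167, 179 and 159 under siCEACAM6#3. Its groups overlapped, at -0.04 (SE 0.05, adjusted p = 0.821) and -0.12 (SE 0.05, adjusted p = 0.391) from NTC and -0.08 (SE 0.05, adjusted p = 0.585) between the siRNAs. KEAP1 (ENSG00000079999, chr19:10486125-10503558), whose upstream match is shown above, read 106, 106, 107 and 99.7 CPM under NTC, 98.7, 89.5, 88.6 and 88.2 under siCEACAM6#2 and 98.5, 83.4, 87.2 and 94.0 under siCEACAM6#3. Every siRNA sample lay below every NTC sample, and the values were similar with both siRNAs, -0.20 (SE 0.06, adjusted p = 0.118) with siCEACAM6#2, -0.21 (SE 0.06, adjusted p = 0.179) with siCEACAM6#3 and -0.20 (SE 0.05, adjusted p = 0.0966) for their average. KEAP1 differed between the siRNAs by -0.01 (95% interval -0.13 to 0.12). MAFG read 163, 148, 155 and 156 CPM under NTC, 160.3, 153, 166 and 157 under siCEACAM6#2 and 150.5, 146, 135 and 149 under siCEACAM6#3. Its siCEACAM6#3 samples lay below all siCEACAM6#2 samples and overlapped with NTC, at -0.13 (SE 0.05, adjusted p = 0.250) between the siRNAs.

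Limma-voom called no gene of conjugation and export, DESeq2 called ABCC2 between the siRNAs, and OSGIN1 was called by both tools between the siRNAs. The exporter ABCC3 read 429, 429, 431 and 445 CPM under NTC, 362, 409, 417 and 424 under siCEACAM6#2 and 408, 487, 437 and 488 under siCEACAM6#3, so that its siCEACAM6#2 samples lay below all NTC samples, at -0.11 (SE 0.06, adjusted p = 0.488). ABCC3 also had the highest value of the 41 genes between the siRNAs, 0.17 (SE 0.06, adjusted p = 0.215). ABCC2 read 17.1, 18.2, 16.9 and 14.6 CPM under NTC, 19.2, 16.8, 18.9 and 22.0 under siCEACAM6#2 and 15.2, 16.4, 15.2 and 15.2 under siCEACAM6#3. The siCEACAM6#3 samples lay below all siCEACAM6#2 samples, at -0.31 (SE 0.09, adjusted p = 0.105). ABCC1 and UGDH, which makes the sugar donor of glucuronidation, overlapped in every comparison. OSGIN1 (ENSG00000140961, chr16:83931311-83966332), a growth inhibitor induced by oxidative stress, read 307, 291, 291 and 279 CPM under NTC, 345, 289.8, 283 and 296 under siCEACAM6#2 and 273, 204, 222 and 253 under siCEACAM6#3. Every siCEACAM6#3 sample lay below every sample of the other groups. OSGIN1 differed by 0.05 (SE 0.08, adjusted p = 0.848) with siCEACAM6#2, -0.30 (SE 0.08, adjusted p = 0.156) with siCEACAM6#3 and -0.36 (SE 0.08, adjusted p = 0.0358) between the siRNAs.

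How firmly the calls between the siRNAs held differed from gene to gene. BLVRB and FTL were called in all 12 fits that left out 1 sample, and NQO1 in 10 of 12, being lost without siCEACAM6#2 replicate 3 or 4. GCLM was called in 4 of these 12 fits, TXNRD1 in 3, HMOX1 in 2, OSGIN1 in 2 and SRXN1 in 1. The number of members called was 12 without siCEACAM6#3 replicate 1, 11 of them lower and ABCC3 higher, and calls over all genes also rose, to 651 from 259 (3.64% from 1.47%). It was 7 without siCEACAM6#3 replicate 4 (1.76% of all genes), 5 without replicate 3 (0.559%) and 3 without replicate 2 (1.04%). It was 3 without siCEACAM6#2 replicate 1 or 2 (0.732% and 0.598% of all genes) and 2 without replicate 3 or 4 (0.464% and 0.659%). Without NTC replicate 1 or 2 it was 4 (1.15% of all genes each) and without NTC replicate 3 or 4 it was 3 (1.03% and 1.15%). The fits on TPM called 1 member, BLVRB (0.278% and 0.289% of all genes). BLVRB alone was also called when only the siRNA groups were fitted (0.333% of all genes).

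**Figure D4:**
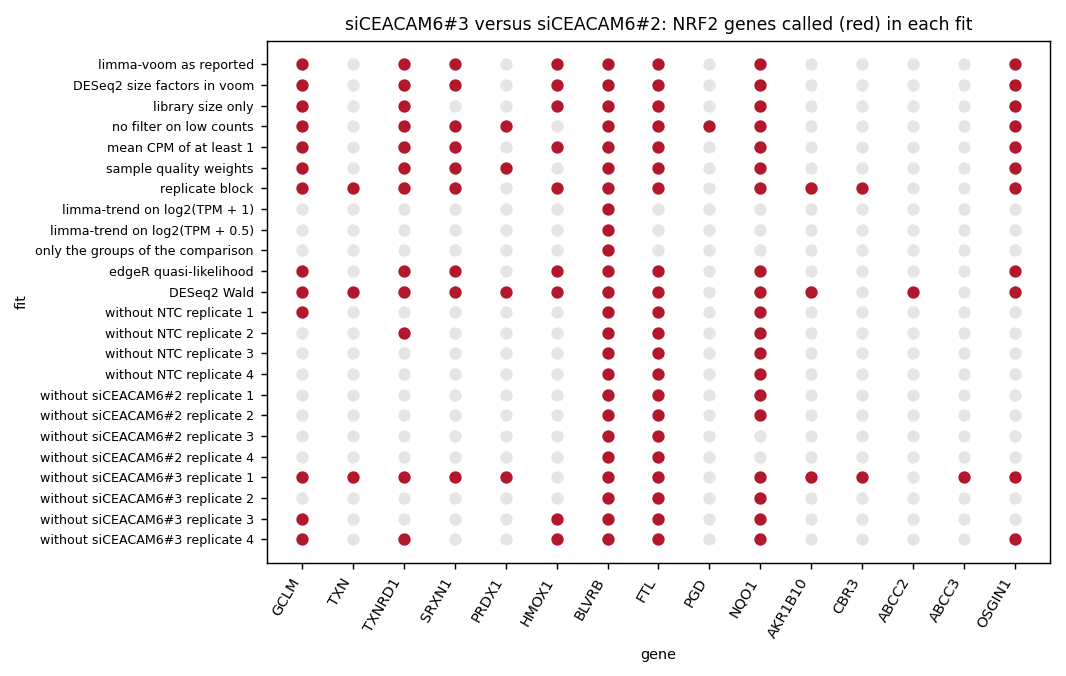
Calls (red, adjusted p under 0.05) and no calls (grey) between siCEACAM6#3 and siCEACAM6#2 for the 15 NRF2 genes called in at least 1 of 24 fits, with 1 row for each fit and 1 column for each gene. BLVRB is red in every row, FTL in all but the 3 rows for TPM and for the 2 groups alone, and SRXN1 in 1 of the 12 rows that leave out a sample.

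Against NTC the counts moved with single libraries too. FTL with siCEACAM6#2 was called in 5 of 12 fits that left out a sample and was lost without any NTC replicate and without siCEACAM6#2 replicate 2, 3 or 4. In that comparison 4 members were called without siCEACAM6#3 replicate 4 (2.03% of all genes) and 2 without siCEACAM6#3 replicate 1 or 2 (1.78% and 1.80%). With siCEACAM6#3 versus NTC, 5 members were called without siCEACAM6#3 replicate 1 and 4 without siCEACAM6#3 replicate 4, all lower, while calls over all genes rose from 12 to 258 (1.44%) and to 47 (0.263%). For the average of both siRNAs, 4 were called without siCEACAM6#3 replicate 4 (1.06% of all genes) and 1, KEAP1, without siCEACAM6#3 replicate 1 (1.06%) or siCEACAM6#2 replicate 1 (1.14%).

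The siCEACAM6#3 replicates differed in how far they lay from NTC. The median log2 ratio of the 41 genes to the NTC mean was -0.10, -0.25, -0.14 and -0.11 in siCEACAM6#3 replicates 1 to 4 and between -0.07 and -0.01 in the siCEACAM6#2 replicates. In siCEACAM6#3 replicates 1 to 4, 24, 34, 30 and 22 members lay below every NTC sample and 3, 2, 0 and 5 above. In siCEACAM6#2 replicates 1 to 4, 14, 16, 19 and 13 lay below and 11, 7, 9 and 7 above. The share over all genes was not computed for single samples, so these counts are descriptions. Mitochondrial shares were 12.5, 15.3, 14.3 and 14.6% in siCEACAM6#3 replicates 1 to 4. The part of the mitochondrial share in these differences was not tested. The members' median SD in log2 CPM was 0.0588 in NTC, 0.0659 with siCEACAM6#2 and 0.120 with siCEACAM6#3, against 0.0977, 0.115 and 0.154 over all genes tested.

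As a sum, the 41 genes held 6.99 to 7.36% of all TPM in the NTC group, 7.11 to 7.50% under siCEACAM6#2 and 6.07 to 6.56% under siCEACAM6#3. NTC and siCEACAM6#2 overlapped, and every siCEACAM6#3 sample was lower. Ferritin alone held 3.37 to 3.63%, 3.65 to 3.76% and 3.09 to 3.14%, so that about as much TPM came from FTL and FTH1 as from the other 39 genes. The sum is led by FTL and FTH1 and is given with no test.

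**Figure D5:**
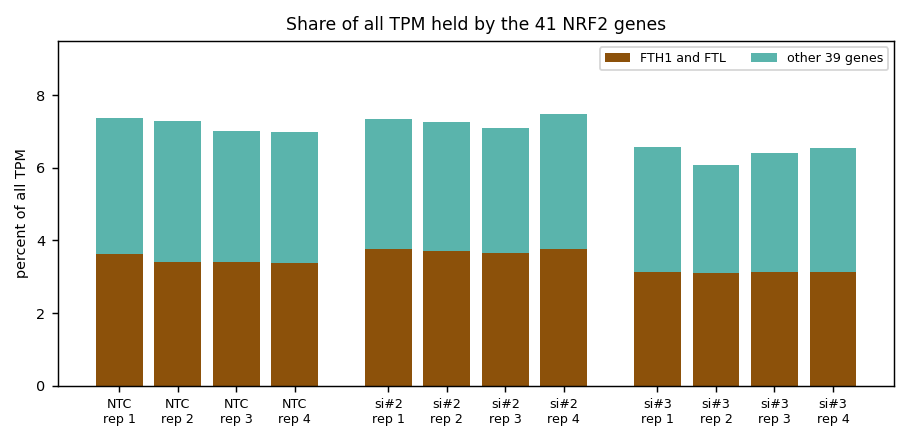
Percent of all TPM held by FTH1 and FTL (brown) and by the other 39 NRF2 genes (green) in each sample, stacked from 0; si#2 and si#3 are siCEACAM6#2 and siCEACAM6#3. The siCEACAM6#3 bars reach 6.07 to 6.56%, below the NTC bars at 6.99 to 7.36% and the siCEACAM6#2 bars at 7.11 to 7.50%.

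A wider list of 98 other genes of the same pathways, also drawn up with earlier results of these data known, had 93 genes tested. Between the siRNAs 9 of them were called, 8 lower and 1 higher with siCEACAM6#3 (9.68%, against 1.47% of all genes tested). These shares too are a description. The lower ones were the glutathione transferases GSTO1, GSTM3 and GSTM4 at -0.32, -0.35 and -0.41, the last enzyme of heme synthesis FECH at -0.32, the cytochrome P450 CYP4F11 at -0.25, the glucuronosyltransferase UGT1A6 at -0.23, the transporter ABCB6 at -0.25 and TRIM16L at -0.20. The higher one was the retinaldehyde dehydrogenase ALDH1A3, at 0.36. GSTM4 read 30.0 ± 1.70 CPM with siCEACAM6#3 (SD, n = 4), 39.9 ± 3.52 with siCEACAM6#2 and 39.1 ± 3.20 with NTC, and TRIM16L read 188 ± 4.15, 216 ± 2.89 and 209 ± 2.96. ALDH1A3 read 176 ± 12.6, 137 ± 14.2 and 152 ± 9.99 in the same order. These 9 genes, picked by their calls in this same comparison, did not overlap between the siRNA groups. Of all 93 genes 12 did not overlap there (12.9%, against 6.68% of all genes tested). In the 12 fits that left out a sample GSTM4 was called 11 times, ABCB6 9, CYP4F11, UGT1A6, TRIM16L and ALDH1A3 8 each, GSTO1 7, FECH 4 and GSTM3 3. The median over the 93 genes was -0.06 with 64 below 0.

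Against NTC, limma-voom and edgeR called 0 of these 93 genes with either siRNA. At an unadjusted p under 0.05 limma-voom gave 15 with siCEACAM6#2 (16.1%, near the 13.6% of all genes) and 19 with siCEACAM6#3 (20.4%, against 12.5%). DESeq2 called 6 and 7 at the adjusted threshold (6.45% and 7.53%, against 3.03% and 1.25% of all genes). Of the 9 genes called between the siRNAs, GSTO1, GSTM3 and UGT1A6 had log2 fold changes of 0.23, 0.20 and 0.16 under siCEACAM6#2, against -0.09, -0.15 and -0.07 under siCEACAM6#3. For GSTM4 and FECH the values were 0.03 and -0.02 under siCEACAM6#2, against -0.38 and -0.34 under siCEACAM6#3.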

How the data were processed

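RNA-seq of 12 SNU308 samples (3 groups of 4) was used, grouped by the titles in the labels. The authors trimmed reads with Trim Galore 0.6.4 and quantified them with kallisto (0.46.1 in the methods, 0.4.6 in the submitters' processing notes) on GRCh38.p13; the GENCODE release is not given in the sources used here. Labels describe strand-specific paired-end reads and the methods single-end reads. For each sample the authors deposited gene-level estimated counts, which carry no scaling, and TPM. Sums per sample differed by little (21799476 to 22059456), and counting error is small at the members' counts. The labels do not say whether replicates came from separate cultures, so p-values measure the spread between these samples, which may be technical.

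After rounding of the estimated counts, the fit used limma 3.58.1 and edgeR 4.0.16 (R 4.3.3) with filterByExpr by group (17620 genes), TMM factors, voom weights, 1 model over the 3 groups without covariates, and Benjamini-Hochberg adjustment over all genes tested (call: adjusted p under 0.05). CPM used TMM-scaled library sizes. The main fit was tested on simulated data with 2-fold changes and the same spread in every group. Those changes are larger than the members' differences, so that test does not cover differences of this size. Same-numbered replicates were not paired: 2 of 12 same-numbered pairs had a correlation of deviations over 0.1 (range -0.0602 to 0.224). Symbols were mapped by Ensembl identifier; of 98 other pathway genes 97 had one identifier (SOD2 did not) and 93 were tested. Positions and 31-mers came from GENCODE 44, promoter windows from RefSeq.

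The members and lists were chosen with earlier results of these data known. Sample values are given for members called in a comparison, NFE2L2, KEAP1, GCLC, the 10 most abundant and those whose CPM did not overlap between groups; other pathway genes are named where called. Alternatives were other normalizations, filters and tests (DESeq2 1.42.0, edgeR quasi-likelihood, limma on TPM), sample weights, a replicate block, the compared groups alone and leaving out each sample. A marker gene from the lists of other cell types is not reported here.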

Additional observations from a re-analysis of the deposited data

Results flagged for a closer look

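In 4 of 123 sets of a gene and a group, the highest sample lay unusually far from the other 3 of its group; chance flags about 1 in 20 such groups. KEAP1 read 98.7 CPM in siCEACAM6#2 replicate 1, above 88.2 to 89.5 in the other replicates and close to the lowest NTC sample (99.7). NQO1 read 2035 CPM in NTC replicate 2, ABCC2 16.4 CPM in siCEACAM6#3 replicate 2 and ABCC3 445 CPM in NTC replicate 4.

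For 8 members the effects of the 2 siRNAs differed by the test of the difference itself, siCEACAM6#3 minus siCEACAM6#2, in limma-voom. The log2 differences were -0.29 for GCLM, -0.26 for TXNRD1, -0.49 for SRXN1, -0.36 for HMOX1, -0.33 for BLVRB, -0.30 for FTL, -0.25 for NQO1 and -0.36 for OSGIN1. Against NTC, FTL passed the test with siCEACAM6#2, and the other 7 genes did not pass it in limma-voom with either siRNA; DESeq2 called BLVRB with siCEACAM6#2 and NQO1 and OSGIN1 with siCEACAM6#3.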

How the results depend on the processing

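No called value changed its sign under an alternative. Numbers of members called moved as follows, with the share of all genes tested that were called in brackets. For siCEACAM6#2 versus NTC, 1 was called as reported (1.25%), 2 without a filter on low counts (0.403%) and 8 with sample quality weights (6.36%). There were 0 on log2(TPM + 1) and 0 on log2(TPM + 0.5) (0.0284% each). The number was 7 with the compared groups alone (3.49%), 5 with DESeq2 (3.03%) and 0 to 4 when leaving out a sample (0.274 to 2.03%). For siCEACAM6#3 versus NTC it was 0 as reported (0.0681%), 2 without a filter (0.0605%) and 10 with sample quality weights (2.17%). It was 6 with DESeq2 (1.25%) and 0 to 5 when leaving out a sample (0.0112 to 1.44%). For the average of both siRNAs it was 0 as reported (0.227%), 9 with sample quality weights (5.10%) and 4 with DESeq2 (1.91%). When leaving out a sample it was 0 to 4 (0.0168 to 1.14%). The compared groups alone give no further value there, because all 3 groups enter. For siCEACAM6#3 versus siCEACAM6#2 it was 8 as reported (1.47%), 7 with library size only (1.32%), 9 without a filter (0.532%) and 8 with sample quality weights (3.18%). It was 12 with DESeq2 (556 of all genes, 3.16%), 1 on either TPM scale (0.278% and 0.289%) and 1 with the compared groups alone (0.333%). When leaving out a sample it was 2 to 12 (0.464 to 3.64%). With sample quality weights 1120, 382, 899 and 560 of all 17620 genes were called in these comparisons, against 221, 12, 40 and 259 as reported, so calls rose over all genes too. CEACAM6 with siCEACAM6#3 ranged from -0.50 to -0.43 when leaving out a sample and missed the threshold without NTC replicate 2, 3 or 4 or siCEACAM6#3 replicate 3. The cause of these shifts was not tested.

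With the replicate number as a replicate block, 1, 3, 0 and 11 members were called in the same order of comparisons. Over all genes 1.61%, 0.494%, 0.670% and 1.98% were then called, against 1.25%, 0.0681%, 0.227% and 1.47% as reported. The numbers did not pair the samples, and 0 samples correlated best with their own number in both other groups, although replicate 1 of siCEACAM6#2 and of siCEACAM6#3 matched each other best (0.224). Leaving out a sample also changes the filter, and 17881 to 17907 genes were then tested.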
